A study of Mus musculus with 3 samples.

Results

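Transcript levels of 41 genes for protein folding and stress signalling in the endoplasmic reticulum (ER) were examined in NIH3T3, a mouse fibroblast cell line. The genes were taken by symbol from a fixed list and were found among 55573 genes listed, with 1 value per library for each. The list matched 42 rows because Ddit3 was listed under a second identifier (ENSMUSG00000116429) that was at 0 in the 3 libraries, and that row was not used. The dataset holds 3 libraries of UMI-RNAseq, a method in which each molecule receives a random tag so that PCR copies can be removed. They share 1 condition, in which NIH3T3 cells were grown in DMEM with fetal bovine serum and received no treatment. According to the methods, the cells were detached with trypsin and washed before lysis in TRIzol, and the values describe cells handled in that way. No stressed cells, such as cells treated with an inducer of ER stress, were among the samples, so levels are compared between genes and not between conditions. Levels are given in FPKM, the fragments of a gene divided by its length in kilobases and by the library total in units of 1000000, so that genes can be set side by side.

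The ER is where secreted and membrane proteins fold. The translocon threads new chains into its lumen, HSP70 and HSP90 chaperones hold them, the lectins calnexin and calreticulin retain glycoproteins until they are folded, and disulfide isomerases form and shuffle their cysteine bonds. Chains that fail to fold are sent back to the cytosol for degradation (ER-associated degradation, ERAD). The unfolded protein response adjusts this machinery through 3 sensors in the ER membrane. IRE1 (Ern1) splices the Xbp1 mRNA, ATF6 (Atf6) is cut to release a transcription factor, and PERK (Eif2ak3) slows translation while Atf4 mRNA is translated better. Ddit3, which encodes CHOP, and Trib3, Chac1 and Ppp1r15a lie downstream of Atf4 and are widely used as markers of stress. Fibroblasts secrete large amounts of collagen and fibronectin and are known for a well-developed ER.

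The libraries held 13959723 to 14423209 counted fragments, worked out from the FPKM values and annotated lengths. The labels mention retina in their extraction text, whereas the cell line is given as NIH3T3. Of 12 retina genes, 0 reached a mean FPKM of 1 and their summed FPKM lay between 1.01 and 1.86 per library. Among them, Nrl was listed at 0 and Gnat1 had a mean of 0.0402 FPKM. Of 12 fibroblast genes, 10 reached 1 FPKM, with Fn1 highest at 4377 ± 86.1 FPKM (SD, n = 3), while Postn was at 0.494 and Lum was listed at 0. Whether separate cultures were used for the libraries is not given, so each SD may cover technical spread only. Libraries 2 and 3 were the closest pair. Between them 7.05% of 12813 genes exceeded the limit that counting error passes in 5% of genes, against 9.16% for libraries 1 and 2 and 9.21% for libraries 1 and 3, and they were kept as separate samples.

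All 41 genes had a mean of at least 1 FPKM, a level reached by 23.2% of all genes listed and by 49.2% of protein-coding genes. At a higher limit, 24 of the 41 genes (58.5%) reached 100 FPKM, against 10.6% of the protein-coding genes with a mean of at least 1. The levels spanned from 11.9 ± 0.649 FPKM for Dnajb9 to 3664 ± 18.4 FPKM for Hspa5 (SD, n = 3), with a median of 125 FPKM over the 41 genes. The median of the 10813 protein-coding genes with a mean of at least 1 was 21.9 FPKM. Together the 41 genes took 1.48% of all fragments, of which Hspa5 alone took 0.520%. The list was put together from known ER genes, so these shares describe the list and were not tested.

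**Figure D1:**
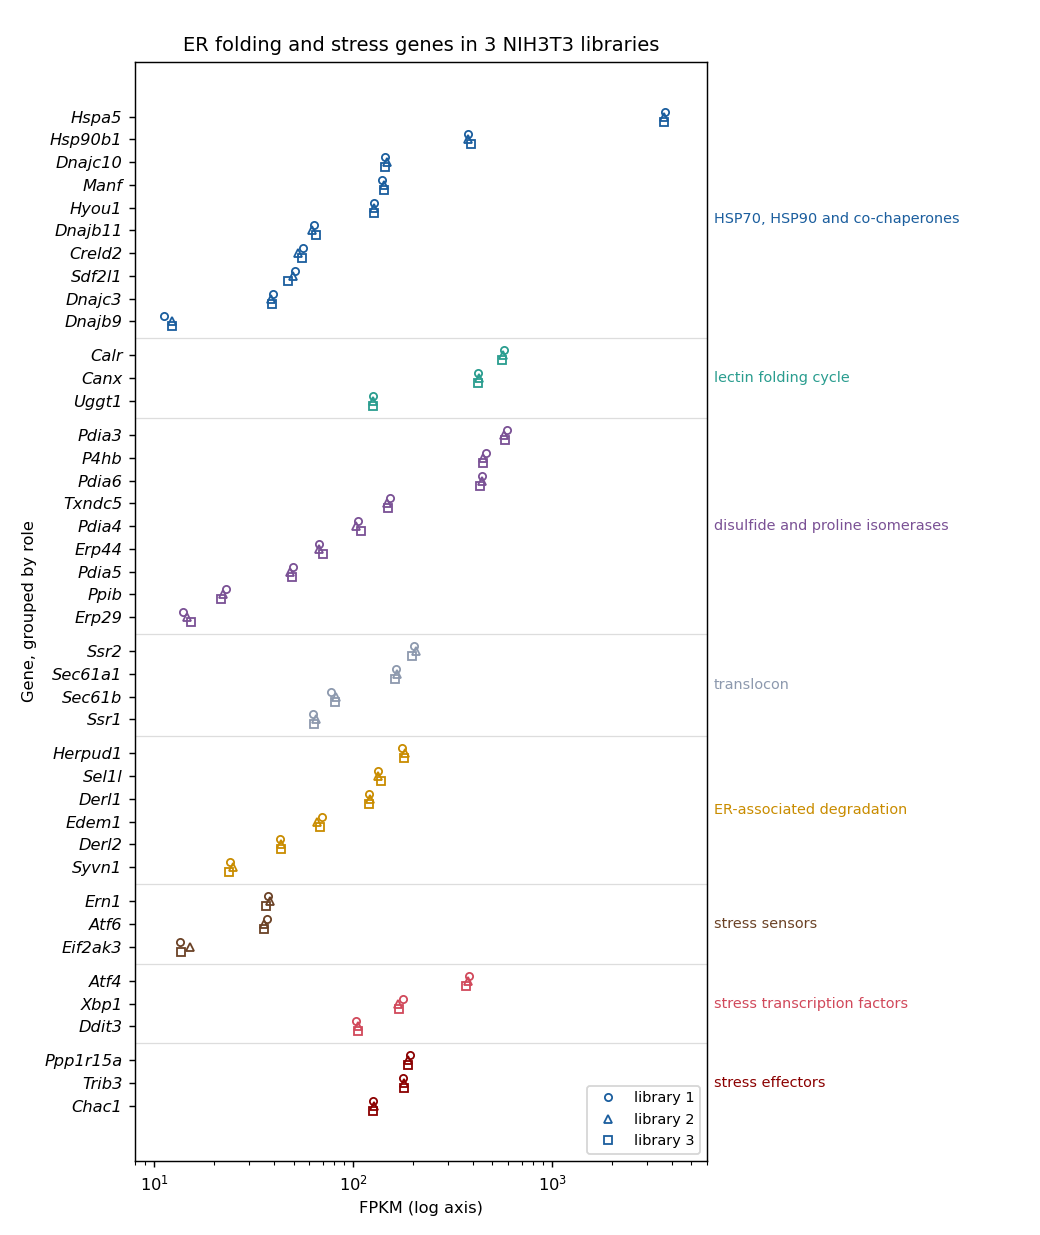
FPKM (log axis) of the 41 genes, grouped by role, with 1 symbol for each of the 3 libraries. Hspa5 stands alone at 3653 to 3685, the stress effectors lie between 125 and 193, and the stress sensors reach 37.9 at most.

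**Figure D2:**
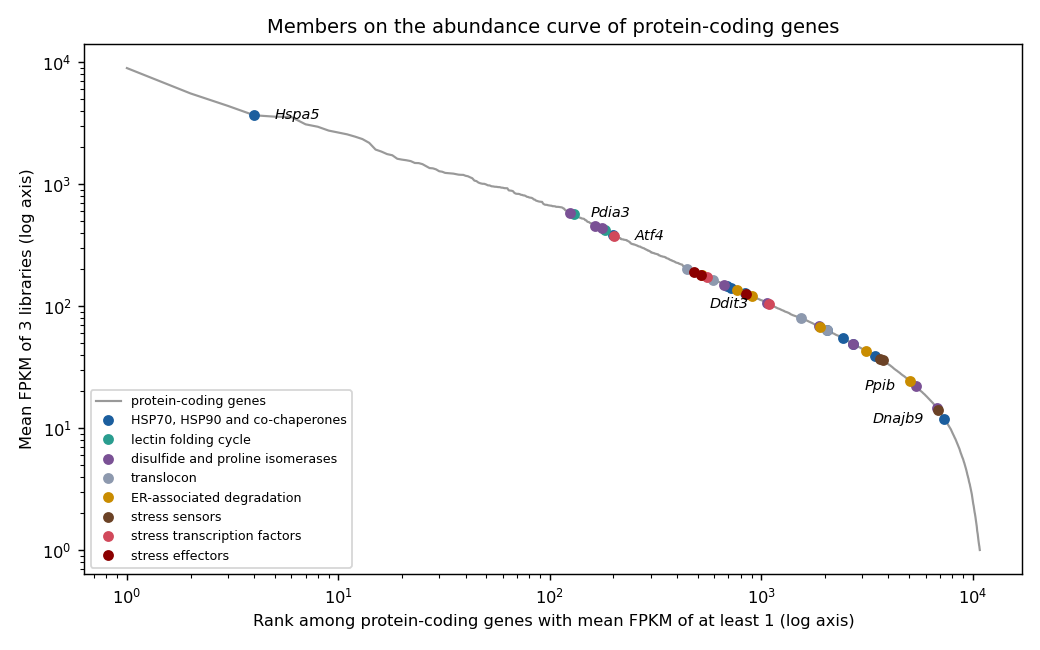
Mean FPKM of 3 libraries (log axis) against rank among 10813 protein-coding genes with a mean of at least 1 (log axis), with the 41 genes as coloured points on the grey curve. Hspa5 ranked 4, the next folding gene Pdia3 ranked 125, Atf4 202, Ddit3 1091 and Dnajb9 7354.

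Many of these genes are known to be controlled through short promoter elements, and the letters of 4 of them were looked for on both strands of RefSeq promoter windows (GRCm38.p6), from 250 bases before to 50 bases after the transcription start. A window was found for 34 of the 41 genes and not for Atf6, Derl1, Erp29, Hyou1, Manf, Sec61a1 and Ssr2. The ER stress response element ERSE (CCAAT, a spacer of 9 bases and CCACG), which ATF6 is known to bind together with NF-Y, was present in 8 of the 34 genes (23.5%), against 37 of 27025 genes with a window (0.137%). The list was put together from known ER genes, many of them known to be controlled through such elements. The contrasts with all genes, for this element and those below, therefore describe the list and were not tested. The sites are shown because 5 of the 7 most abundant folding genes held one, namely Hspa5, Calr, Pdia6, Canx and Hsp90b1. Over all folding genes with a window the share was 7 of 19. It was 2 of 8 for those below Ddit3, Trib3, Chac1 and Ppp1r15a in every library. These sets were cut from the same FPKM values, and the shares were not tested. Each site is printed from 5′ to 3′ with 5 flanking bases on each side, and the capitals mark the fixed letters of the element.
Hspa5, plus strand, chr2:34772020-34772048: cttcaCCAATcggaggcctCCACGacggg
Hsp90b1, minus strand, chr10:86705633-86705661: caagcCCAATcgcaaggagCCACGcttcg
Hsp90b1, plus strand, chr10:86705528-86705556: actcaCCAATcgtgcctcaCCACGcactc
Calr, plus strand, chr8:84847070-84847098: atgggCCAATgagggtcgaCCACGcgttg
Canx, minus strand, chr11:50325795-50325823: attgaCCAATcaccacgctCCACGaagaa
Pdia6, plus strand, chr12:17266486-17266514: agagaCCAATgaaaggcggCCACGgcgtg
Creld2, minus strand, chr15:88819515-88819543: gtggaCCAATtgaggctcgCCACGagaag
Dnajc3, plus strand, chr14:118937822-118937850: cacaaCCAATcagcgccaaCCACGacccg
Syvn1, plus strand, chr19:6046527-6046555: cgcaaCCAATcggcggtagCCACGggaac

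The genes with an ERSE ranged from 24.1 FPKM for Syvn1 to 3664 FPKM for Hspa5, so the element was found at both ends of the order of levels. Their median was 402 FPKM, against 105 FPKM for the 26 genes whose window held no ERSE, a difference that was not tested. Those 26 genes include translocon, sensor and stress genes beside folding genes. The related element ERSE-II (ATTGG, any base and CCACG) was found in Herpud1 and Dnajb11, against 12 of 27025 genes with a window (0.0444%). Counting both elements, 5 of 8 genes for HSP70, HSP90 and co-chaperones held a match, as did 2 of 3 genes of the lectin cycle, 1 of 8 isomerase genes and 2 of 5 ERAD genes. None (0) of the 10 genes with a window for the translocon, the sensors, the stress transcription factors and the stress effectors did. Over all genes with a window the shares were 0.137% for ERSE and 0.0444% for ERSE-II. A count of 0 of 10 is near those shares and is no result about these 10 genes. The letters of the CARE, the element bound by ATF4 with C/EBP factors, were searched as TGATGNAA. They were found in Chac1, Trib3, Herpud1 and Txndc5, which is 4 of 34 genes (11.8%) against 4.51% of genes with a window. The windows of Ddit3 and Ppp1r15a held no such match. The sites of the stress effectors Chac1 and Trib3 and of Herpud1, which held both an ERSE-II and a CARE, are shown in the same way.
Herpud1, ERSE-II, plus strand, chr8:94386372-94386392: cgctgATTGGgCCACGttgga
Herpud1, CARE, minus strand, chr8:94386312-94386329: cgggcTGATGcAAcccgc
Chac1, CARE, minus strand, chr2:119351044-119351061: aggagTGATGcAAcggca
Trib3, CARE, plus strand, chr2:152344034-152344051: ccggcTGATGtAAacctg
The element UPRE (TGACGTGG), which XBP1 is known to bind, was found only in Txndc5 among the 34 genes, against 0.714% of genes with a window. A match of letters does not show binding, and a window without one leaves the rest of the gene unexamined. Only exact matches at the fixed letters were counted, so variants of the elements could be missed.

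Hspa5 encodes BiP, the HSP70 chaperone of the ER, which also holds the stress sensors inactive when few unfolded chains are present. It lies on the plus strand of chromosome 2 from 34771970 to 34777547 (GRCm38, GENCODE M21; ENSMUSG00000026864). Its level was 3685 FPKM in library 1, 3654 in library 2 and 3653 in library 3, from 75366, 72321 and 74106 fragments. The libraries differed by a factor of at most 1.01. Hspa5 ranked 5 among the 12905 genes with a mean of at least 1 FPKM and 4 among protein-coding genes. Pdia3, the next of the 41 genes, was lower than Hspa5 by a factor of 6.30 ± 0.0763 (SD, n = 3).

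Hsp90b1 encodes GRP94, the HSP90 of the ER (chromosome 10, minus strand, 86690209 to 86705509). It had 375, 378 and 389.5 FPKM in libraries 1, 2 and 3. Hspa5 was 9.62 ± 0.231 times as high (SD, n = 3), or 7.40 times with the longest isoform. Of the transcript bases of Hsp90b1, 18.3% match other genes exactly, over runs of at least 75 nt. Other genes cover 10.3% of its exons on the other strand and 5.38% on its own strand. The part of this overlap in its level was not tested. Partners of BiP lay well below it. Dnajc10, a co-chaperone that also reduces disulfide bonds, had 145, 148 and 145 FPKM, and Hyou1, a large HSP70 that exchanges the nucleotide of BiP, had 127, 126 and 127 FPKM. Manf, a secreted ER protein that binds BiP, had 139, 142 and 142 FPKM. Hsp90b1 lay above these 3 genes in every library. The J-domain genes Dnajb11 and Dnajc3, whose proteins pass clients to BiP, reached 63.4 ± 1.44 and 39.0 ± 0.535 FPKM (SD, n = 3). Creld2 and Sdf2l1, small ER proteins known to be induced by stress, had 54.4 ± 1.70 and 49.1 ± 1.98 FPKM (SD, n = 3). Dnajb9, a J-domain protein that recruits BiP to IRE1, was the lowest of the 41 genes on the deposited scale, with 11.1, 12.2 and 12.2 FPKM from 228, 243 and 249 fragments. Hspa5 was 309 ± 19.1 times as high as Dnajb9 (SD, n = 3), or 206 times with the longest isoform. Against Sdf2l1, Hspa5 was 74.7 ± 2.79 times as high (SD, n = 3), or 28.8 times with the longest isoform. This group of 10 genes had a median of 95.1 FPKM. With the longest isoform Eif2ak3, at 5.91 FPKM, lay below Dnajb9, at 6.86 FPKM.

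Calnexin, the membrane-bound lectin, and calreticulin, its soluble relative, were both abundant. Calr (chromosome 8, minus strand, 84841850 to 84846934) had 571, 566 and 556 FPKM. Canx (chromosome 11, minus strand, 50293961 to 50325673) had 422, 426 and 423 FPKM. Calr lay above Canx in each library, by a factor of 1.33 ± 0.0197 (SD, n = 3). Uggt1, which adds glucose back to unfolded glycoproteins so that the lectins bind them again, had 126, 125 and 126 FPKM. Its coefficient of variation (CV) between libraries was 0.0821%, below the 1.52% that counting error alone gives on average.

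The disulfide isomerases fell into separate levels. Pdia3, the partner of calnexin and calreticulin, had 593, 574 and 578 FPKM. P4hb, which encodes the classical disulfide isomerase and a subunit of collagen prolyl hydroxylase, had 464, 449 and 450.2 FPKM, and Pdia6 had 443, 443 and 431 FPKM. These 3 genes lay above Txndc5, at 149.7 ± 2.57 FPKM, and Pdia4, at 106 ± 3.22 FPKM (SD, n = 3), in every library. Erp44, which retains proteins by thiol bonds, and Pdia5 followed at 68.2 ± 1.49 and 48.9 ± 0.882 FPKM (SD, n = 3). P4hb was 9.29 ± 0.0710 times as high as Pdia5 (SD, n = 3).

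Ppib and Erp29 were the lowest of the folding genes apart from Dnajb9. Ppib encodes cyclophilin B, a proline isomerase that works on collagen, and had 21.6 to 22.8 FPKM, from 690, 645 and 650 fragments. Erp29, a thioredoxin-fold protein without isomerase activity, had 13.9, 14.6 and 15.2 FPKM. Both are annotated over a gene on the other strand. Snx22, at 0.192 FPKM, covers 825 nt of the exons of Ppib, and Naa25, at 22.7 FPKM, and Tmem116 cover 26.4% of the exons of Erp29. Of the other 39 genes, none (0) had more than 12.8% of its exons covered in this way. Exact matches of at least 75 nt to other genes covered 33.9% of the transcript bases of Ppib, 24.4% for Erp29 and 18.3% for Hsp90b1. The length behind the values of Ppib was 2099 nt, close to the mean of its annotated isoforms of 892 and 3305 nt. Whether reads were assigned by strand is not given in the sources used here. The part of overlap and length in the low values of Ppib and Erp29 was not tested.

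The translocon genes lay in the middle of the order. Sec61a1, the channel itself, had 164, 165 and 162 FPKM, and Sec61b, a small subunit beside it, had 76.7, 81.5 and 80.3 FPKM. Ssr2 and Ssr1, subunits of the translocon-associated protein complex, had 202 ± 4.37 and 63.6 ± 1.13 FPKM (SD, n = 3). Ssr2 was 3.18 ± 0.0497 times as high as Ssr1 (SD, n = 3), and 5.35 times with the longest isoform. Of the exons of Ssr2, 12.8% are covered by the pseudogene Gm10704 on the other strand, which had 5.91 FPKM.

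Among ERAD genes, Herpud1, a scaffold of the ubiquitin ligase complex, was highest, with 175, 181 and 179 FPKM. Sel1l, the partner that stabilizes the ligase, had 133, 133 and 137 FPKM, and Derl1, a candidate channel for export, had 119, 121 and 119 FPKM. Edem1, which hands over trimmed glycoproteins, had 67.7 ± 1.91 FPKM, and Derl2 had 43.2 ± 0.449 FPKM (SD, n = 3). Syvn1, which encodes the ubiquitin ligase HRD1 itself, was the lowest, with 24.1, 24.7 and 23.6 FPKM. Sel1l was 5.58 ± 0.233 times and Herpud1 7.39 ± 0.177 times as high as Syvn1 (SD, n = 3), and Sel1l 3.53 times with the longest isoform.

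The 3 sensors were the lowest group, with a median of 36.0 FPKM and no gene at or above 100 FPKM. Ern1 had 37.0, 37.9 and 36.2 FPKM, and Atf6 had 36.7, 35.5 and 35.7 FPKM. Ern1 was the higher in 3 of 3 libraries, by a factor of 1.03 ± 0.0336 (SD, n = 3), but their ranges over the libraries overlapped and the order turned with the longest isoform. Eif2ak3 had 13.5, 15.1 and 13.6 FPKM, below both, and Ern1 was 2.64 ± 0.118 times as high (SD, n = 3). The transcription factors they control were higher. Xbp1 (chromosome 11, plus strand, 5520659 to 5525893) had 178, 168 and 169.7 FPKM, which was 4.64 ± 0.201 times Ern1 (SD, n = 3), and 7.12 times with the longest isoform. Spliced and unspliced Xbp1 share 1 value in the table and were not separated. Atf4 (chromosome 15, plus strand, 80255184 to 80257541) had 381, 375 and 369 FPKM and overlapped with Hsp90b1, its neighbour in the order. Its mRNA level says little about its protein, which is known to be set by translation.

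The stress markers were not at low levels. Ddit3 (ENSMUSG00000025408; chromosome 10, plus strand, 127290774 to 127296288) had 103, 105 and 105 FPKM from 1220, 1204 and 1235 fragments. Trib3, a pseudokinase that inhibits ATF4 and AKT, had 178, 179 and 179 FPKM (chromosome 2, minus strand, 152337422 to 152344032). Chac1, which breaks down glutathione, had 125, 127 and 125 FPKM (chromosome 2, plus strand, 119351229 to 119354381). Ppp1r15a encodes GADD34, which restores translation after PERK has acted, and had 193, 187 and 189 FPKM (chromosome 7, minus strand, 45522916 to 45526268). In each library these genes kept the order Ppp1r15a, Trib3, Chac1, Ddit3 and their ranges did not overlap, although both Ppp1r15a, at 124 FPKM, and Trib3, at 93.3 FPKM, fall below Chac1, at 126 FPKM, when the longest isoform sets the length. They ranked 483, 520, 847 and 1091 among the 10813 protein-coding genes, so Ddit3 lay above 89.9% of them. The second Ddit3 row belongs to a gene model of 105 nt within the exons of Ddit3, and Mars on the other strand covers 68 nt.

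The folding genes were then set against these markers. Hspa5 lay above Ddit3 by a factor of 35.7, 34.7 and 34.7 in libraries 1, 2 and 3, above Chac1 by 29.5, 28.8 and 29.1, and above Trib3 by 20.7, 20.4 and 20.4. The log2 ratios were 5.13 ± 0.02 for Ddit3, 4.86 ± 0.02 for Chac1 and 4.35 ± 0.01 for Trib3 (SD, n = 3). Each of the 3 log2 ratios was tested against 0 by an exact two-sided permutation test that flips the signs of the libraries. The exact p was 0.25 in each case, also when adjusted by the Benjamini-Hochberg method, and n = 3 cannot give a smaller value, so 0.05 was out of reach. Hspa5 was also chosen with its high level known, so the test decides nothing about these ratios.

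Most other folding genes did not share the lead of Hspa5. Of the 22 folding genes (chaperones, lectin cycle and isomerases), 7 lay above Ddit3, Ppp1r15a, Trib3 and Chac1 in every library, namely Hspa5, Pdia3, Calr, P4hb, Pdia6, Canx and Hsp90b1. Below all 4 markers in every library were 9, namely Erp44, Dnajb11, Creld2, Sdf2l1, Pdia5, Dnajc3, Ppib, Erp29 and Dnajb9. Trib3 and Ppp1r15a each lay above 15 of the 22 folding genes in every library, Chac1 above 10 and Ddit3 above 9. In the other direction, 12 folding genes lay above Ddit3 in every library, 10 above Chac1, and 7 above each of Trib3 and Ppp1r15a. Chac1 was 2.56 ± 0.109 times as high as Sdf2l1, and Ddit3 was 8.82 ± 0.394 times as high as Dnajb9 (SD, n = 3).

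The median folding gene was at 126.2, 125.9 and 126.2 FPKM in libraries 1, 2 and 3, and the median of the 4 markers at 152, 153 and 152 FPKM. Their log2 ratio was -0.27 ± 0.01 (SD, n = 3), so the median folding gene lay below the median marker in each library. With means in place of medians the sign turned, to a log2 ratio of 1.22 ± 0.01 (SD, n = 3). Hspa5 held 47.7% of the summed FPKM of the 22 genes. Without Hspa5 the mean of the other folding genes was 191 ± 1.03 FPKM (SD, n = 3), still above the mean of the 4 markers, 149.7 FPKM, at a log2 ratio of 0.35 ± 0.01 (SD, n = 3).

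**Figure D3:**
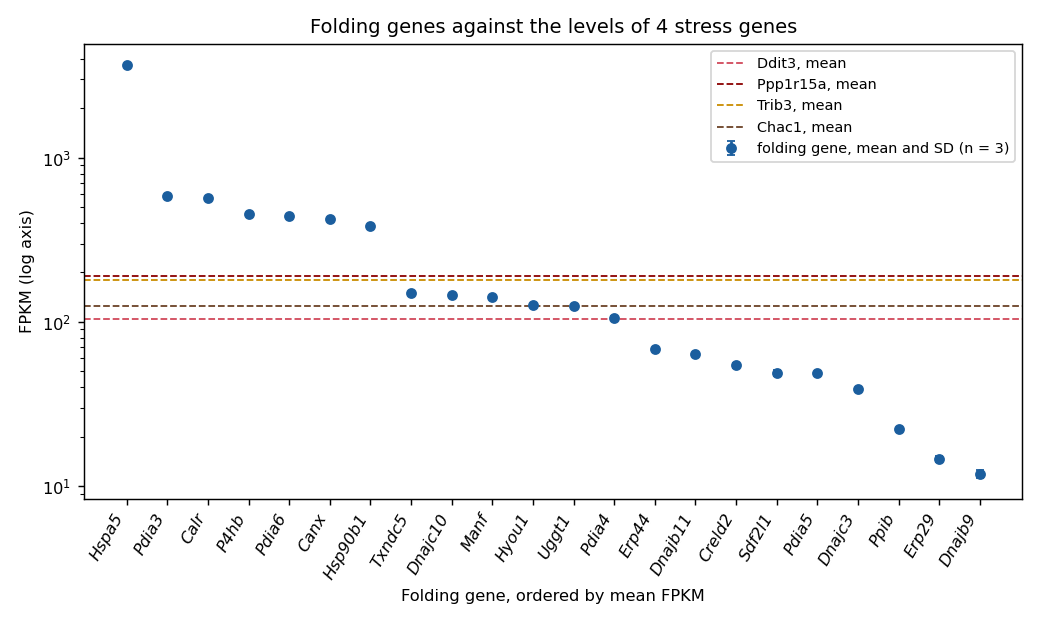
FPKM (log axis) of the 22 folding genes as mean and SD of 3 libraries, with dashed lines at the means of Ddit3 (105), Chac1 (126), Trib3 (179) and Ppp1r15a (189). The 7 genes on the left lie above all lines and the 9 on the right below all of them, and most SDs are smaller than the points.

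The levels of other genes from these pathways were taken from 3 further lists. Of 30 other genes of stress signalling and targets of PERK and ATF4, 26 had a mean of at least 1 FPKM and 9 reached 100 FPKM, with a median of 37.3 FPKM. The highest was Phgdh, which starts serine synthesis, at 598 ± 2.56 FPKM (SD, n = 3), and the lowest was Ern2, a relative of Ern1 known from gut epithelium, at 0.0161 FPKM. Other genes of this list lay far apart, with means of 354 FPKM for Asns, 33.9 for Atf3, 0.370 for Gdf15 and 0.172 for Fgf21. Of 35 other genes for folding and ER machinery, 32 reached 1 FPKM and 6 reached 100 FPKM, with a median of 50.1 FPKM. Here Ero1l, the oxidase that recharges disulfide isomerases, was highest at 748 ± 38.4 FPKM (SD, n = 3), above all of the 41 genes but Hspa5. The testis-specific isomerase Pdilt was listed at 0. Of 18 other ERAD genes, 17 reached 1 FPKM, with Vcp, the ATPase that pulls substrates out, at 160.2 ± 7.04 FPKM (SD, n = 3) and Derl3 at 0.274 FPKM. The medians of these lists lay below the 125 FPKM of the 41 genes, and this was not tested.

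FPKM depends on the length by which fragments are divided. The values implied a length within 1 nt of the mean of all annotated isoforms of each of the 41 genes. The longest isoform exceeded the length used by factors of 1.00 to 3.74, with a median of 1.86, against 1.72 over all genes with a mean of at least 1. The factor was 2.59 for Hspa5, 3.74 for Uggt1, 3.18 for Sec61a1, 1.18 for Ddit3 and 1.00 for Chac1. With the longest isoform, Hspa5 stayed first at 1415 ± 7.10 FPKM, which was 16.0 times Ddit3, 15.2 times Trib3 and 11.2 times Chac1. The order changed below it. Pdia3 then lay at 0.800 times Calr, Trib3 at 0.742 times Chac1, which became the highest of the 4 markers, Ern1 at 0.625 times Atf6 and Sec61a1 at 0.876 times Sec61b, where each had been the higher of its pair. Of the 22 folding genes, 14 then lay below each of Ddit3, Trib3, Chac1 and Ppp1r15a, and the log2 ratio of the medians fell to -1.02.

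**Figure D4:**
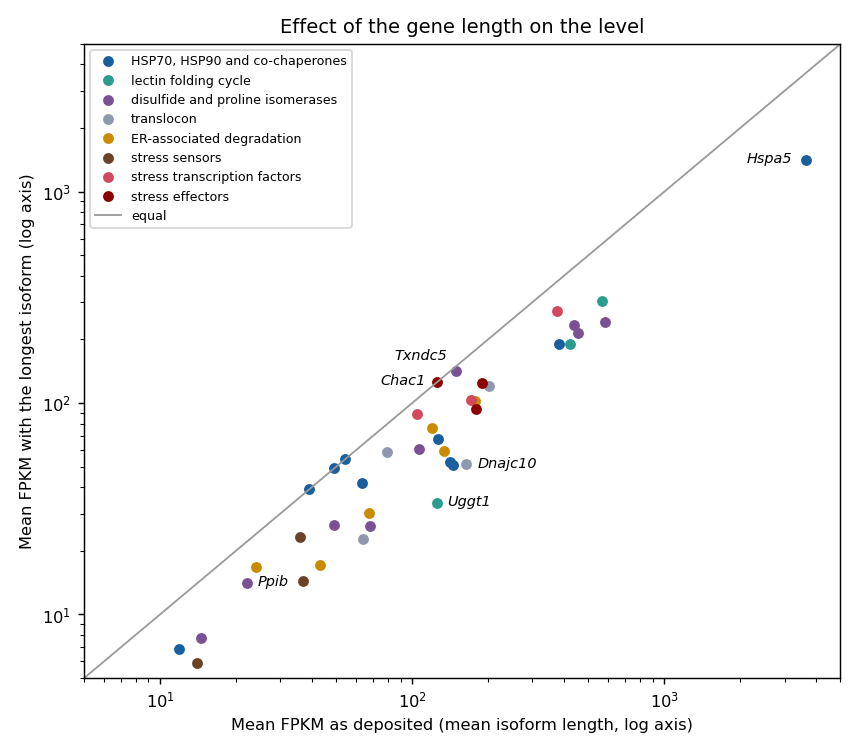
Mean FPKM with the longest annotated isoform against mean FPKM as deposited (both log axes) for the 41 genes, coloured by role, with a line where both are equal. Chac1 lies on the line, Hspa5 moves from 3664 to 1415 and Uggt1 from 125 to 33.6.

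The spread between libraries was small beside the differences between genes. The CV of FPKM ranged from 0.0821% for Uggt1 to 6.30% for Eif2ak3, with a median of 1.76%. In the order of levels, 12 of the 40 pairs of neighbours had ranges that overlapped over the libraries, among them Hsp90b1 and Atf4, Trib3 and Herpud1, Chac1 and Uggt1, and Pdia4 and Ddit3. The fragments of each gene were compared between libraries with a chi-square statistic against the library totals. Of the 41 genes, 2 exceeded the limit that counting error passes in 5% of genes (4.88%), against 9.49% of the 13649 genes tested. Among the 8144 genes with at least 720 fragments in all, the lowest number in the 41 genes, the share was 11.2%. The 2 genes were Xbp1, with 3283, 2989 and 3102 fragments, and Hsp90b1, with 8743, 8548 and 9017 fragments. Xbp1 was highest in library 1 and Hsp90b1 in library 3. After Benjamini-Hochberg adjustment over all genes tested, 0 of the 41 genes passed, against 2.02% of genes. Without library 1, 0 of the 41 genes exceeded the unadjusted limit, and without library 3 there were 4. With median-of-ratios scaling in place of library totals there were 5.

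**Figure D5:**
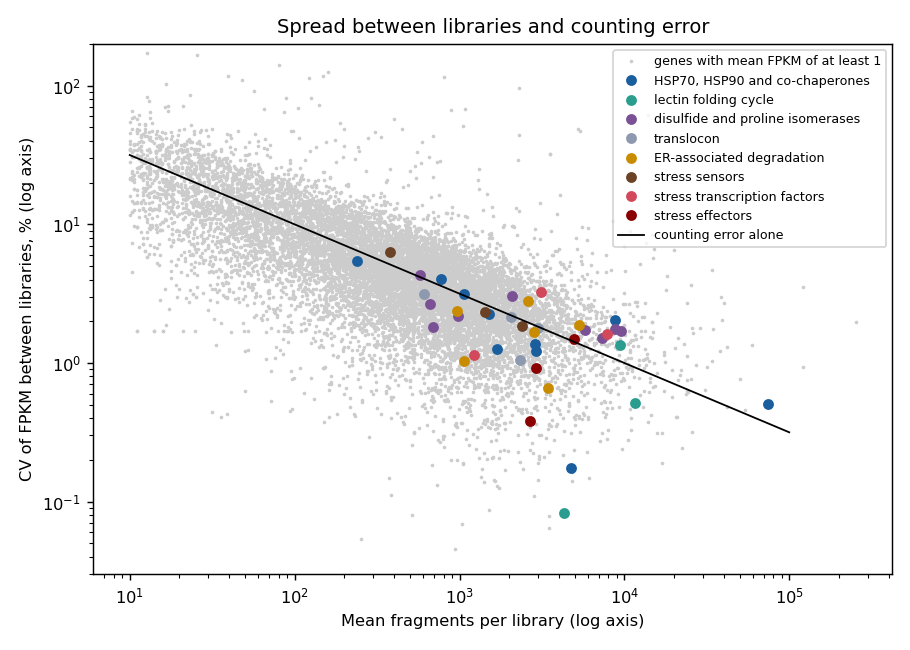
CV of FPKM between the 3 libraries against mean fragments per library (both log axes), for genes with a mean of at least 1 FPKM and at least 30 fragments (grey) and the 41 genes (coloured by role). The black line is the CV from counting error alone. The 41 genes lie on both sides of the line, and Eif2ak3 has the highest CV among them at 6.30%.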

How the data were processed

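UMI-RNAseq of 3 NIH3T3 libraries was analysed. The submitters' processing notes name UMI-tools 1.0.0, HISAT2 2.0.4, HTSeq 0.6.1 and DESeq 1.10.1. Per the methods, reads carrying a UMI were mapped, repeats that shared both position and UMI were dropped, and the rest were counted per gene, so PCR copies add little to the values. The authors divided these counts by gene length and library total and deposited them as FPKM, without pooling. For the counting step, genome build and annotation are not given in the sources used here. Both deposited tables hold the same values, and 0 columns of values were left unused.

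FPKM values were used as deposited, with Python 3.11.15, numpy 2.4.6, pandas 2.3.3, scipy 1.17.1 and matplotlib 3.10.9. No count model was fitted, since there is 1 condition. Fragments were recovered as FPKM times length times library total, with lengths within 3 nt of the mean isoform length in GENCODE M21 (GRCm38) that gave whole numbers within 0.01 in each library. This held for 99.2% of the 26193 genes above 0. With totals of 13959723 to 14423209, each of the 41 genes rests on at least 720 fragments in all. The recovery and the chi-square comparison, over genes with at least 30 fragments, were also run on simulated data. Those data held counting error alone, apart from genes changed on purpose. They therefore do not show how the comparison behaves with the spread of the real libraries. Exact matches to other genes were found with BLAST 2.17.0. Of 35, 18 and 30 genes in the 3 further lists, 12 fibroblast and 12 retina genes, all were found, with other symbols where needed.

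The 41 genes, the lists and the tests were chosen with earlier results of these data known. The genes named are the 41, the highest and lowest gene of each further list, and genes that overlap the 41 or are their pseudogenes. Nrl, Gnat1, Postn, Lum, Asns, Atf3, Gdf15 and Fgf21 were named in addition, after their values were seen. Alternatives were leaving out each replicate, pseudocounts, other FPKM limits, the longest isoform, list means, other sets of genes for the percentile, other scaling and another fragment minimum. AmpFISH imaging was not analysed here.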

Additional observations from a re-analysis of the deposited data

How the results depend on the processing

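Of 29 values obtained under the alternatives for counts, percentiles and the ratio of medians, 20 held, which means within 1.5 times for counts and within 1 SD for other values. The 20 include every value for the number of genes at or above the FPKM limit, which was 41 throughout. Those alternatives could not have changed it, since the lowest gene had 11.9 FPKM, or 5.91 FPKM with the longest isoform. Apart from these 29 values, 18 were log2 ratios of Hspa5 to Ddit3, Trib3 and Chac1. All were above 0, but with the longest isoform the ratio to Ddit3 fell from 35.1 to 16.0, to Trib3 from 20.5 to 15.2 and to Chac1 from 29.1 to 11.2, each by more than the SD between libraries. The log2 ratio of the median folding gene to the median stress marker, -0.27, became 1.22 with list means and -1.02 with the longest isoform, where the cause was not tested. It was 0.35 with list means without Hspa5, and -0.19 as medians without Ppib and Erp29, both settings chosen after seeing the data. The percentile of Hspa5, 99.96 among genes with a mean of at least 1 FPKM, was 99.99 among all genes listed, which adds genes near 0, and 99.88 with the longest isoform, where the cause was not tested. The number of genes beyond counting error, 2, was 5 with median-of-ratios scaling and ranged from 0 to 4 when each replicate was left out. The permutation test of the Hspa5 ratios could not pass 0.05 with 3 libraries, or with the 2 left when one is omitted, so it says nothing about stability. No paired analysis was possible because all 3 libraries share 1 condition. Depth limits Dnajb9 and Eif2ak3 the most, with 228 to 399 fragments per library.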
